A study of Mus musculus with 6 samples.

Results

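The genes described here are 10 targets of beta-catenin that mark pericentral hepatocytes or report WNT signalling in the liver: Axin2, Rnf43, Znrf3, Sp5, Lgr5, Tbx3, Glul, Lhpp, Slc1a2 and Rgn. They were taken by gene symbol from the deposited count table, in which all 10 were found among 52323 genes, and all 10 were among the 19135 genes tested. RNA was sequenced in bulk from damaged hepatocytes (dHeps) of mice injured with CCl4. Their genotype was AAV-TBG-Cre:Rosa-LSL-tdTomato, in which Cre driven by the liver-specific TBG promoter labels hepatocytes, and the cells were cultured on collagen in serum-free Hepatocyte Maintenance Medium to day 16. The 2 DMSO libraries had solvent alone. The 2 libraries of 3C had CID755673 at 50 µM, which blocks protein kinase D, GSK429286A at 2 µM, and ETC-1002 at 5 µM, which blocks ATP citrate lyase. The 2 libraries of 5C had these compounds at the same concentrations together with salidroside at 5 µM, a glucoside from Rhodiola plants, and forskolin at 2 µM, which activates adenylate cyclase. The groups thus shared the injury, the label, the medium and the day. The study's methods call its replicates separate biological replicates. The labels do not say whether they came from different animals or cultures, so p-values measure only the spread between these samples.

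In the canonical WNT pathway, beta-catenin is held low by a destruction complex built on axin and is stabilised when WNT ligands engage Frizzled and LRP5/6 receptors, after which it acts with TCF/LEF factors on target genes. In the liver lobule, WNT and R-spondin ligands from endothelial and stromal cells near the central vein keep this pathway active in the hepatocytes around it. Those pericentral hepatocytes make glutamine synthetase and drug-metabolising enzymes, whereas periportal hepatocytes carry out urea synthesis and gluconeogenesis. Several targets are themselves regulators of the pathway, so that their level is often read as a measure of its activity.

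Promoter sequence was examined to show which of these genes carry CTTTGAA or CTTTGAT, letters bound by TCF/LEF factors, close to their canonical start. No other letters were searched for TCF/LEF factors, so a gene without a match may still hold a site for them. The sequences below lie within the 250 bases before the start of the canonical transcript on GRCm39, leaving out bases inside any annotated exon, and are written 5′ to 3′ on the strand of the gene. Axin2, Sp5 and Lgr5 are shown because they hold a match, and Glul because it was called lower under both cocktails and holds none. Capitals mark a match to CTTTGAA or CTTTGAT (TCF/LEF) or to TGACGTCA, the cyclic AMP response element (CRE), on either strand.
Axin2, chr11:108811388-108811625, plus strand: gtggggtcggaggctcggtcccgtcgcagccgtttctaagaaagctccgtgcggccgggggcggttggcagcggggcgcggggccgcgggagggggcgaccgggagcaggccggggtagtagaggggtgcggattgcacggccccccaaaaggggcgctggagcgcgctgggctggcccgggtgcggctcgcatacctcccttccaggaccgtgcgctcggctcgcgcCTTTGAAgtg
Sp5, chr2:70305017-70305266, plus strand: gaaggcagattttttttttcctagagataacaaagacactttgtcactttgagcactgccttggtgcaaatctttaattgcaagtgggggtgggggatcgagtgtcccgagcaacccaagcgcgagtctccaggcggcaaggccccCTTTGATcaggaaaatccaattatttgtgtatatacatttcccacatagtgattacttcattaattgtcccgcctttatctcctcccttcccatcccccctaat
Lgr5, chr10:115423686-115423935, minus strand: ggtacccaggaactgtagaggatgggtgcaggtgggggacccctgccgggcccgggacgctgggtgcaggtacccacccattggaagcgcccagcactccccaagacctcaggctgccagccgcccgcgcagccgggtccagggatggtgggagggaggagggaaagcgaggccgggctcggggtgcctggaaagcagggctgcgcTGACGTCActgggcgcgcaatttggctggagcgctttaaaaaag
Glul, chr1:153776134-153776322, plus strand: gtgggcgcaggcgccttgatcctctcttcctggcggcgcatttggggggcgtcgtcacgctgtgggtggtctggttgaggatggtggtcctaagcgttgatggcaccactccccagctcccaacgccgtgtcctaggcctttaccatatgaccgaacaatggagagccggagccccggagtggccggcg

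The TCF/LEF letters lay 22 bases upstream of the Axin2 start and 104 bases upstream of the Sp5 start, and the CRE letters lay 44 bases upstream of the Lgr5 start. Within 1000 bases, Axin2 had a further TCF/LEF match at 385 bases, Lgr5 had one at 512 bases and Rgn had one on the opposite strand at 770 bases. No match was found in the 1000 bases before the canonical transcript start of Rnf43, Znrf3, Tbx3, Glul, Lhpp or Slc1a2. The HNF4A letters CAAAGTCCA were found before none of the 10 canonical starts. The canonical starts of Axin2, Glul, Rnf43, Tbx3 and Rgn lie inside their annotated genes. For Rnf43, Tbx3 and Rgn the search did not reach the bases upstream of the gene. All 250 bases nearest the start were exonic for Rnf43 and Tbx3. Of 21770 promoters of protein-coding genes, 7.54% held a TCF/LEF match within 250 bases and 31.9% within 1000 bases. The CRE letters were in 1.69% and 2.22% of them, and the HNF4A letters in 0.372% and 1.38%. A match describes the letters in the window and no more.

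Total estimated counts were 65916573 to 69245895 per library, the largest being 1.05 times the smallest. CPM below is the count divided by that total, times 1e+06. The smallest amount taken as detected was 3 fragments, assumed to be 12 count units, or 0.173 to 0.182 CPM. This floor covers counting error only. Pearson's r of log2 CPM across genes, which are not independent replicates, was 0.975 for the DMSO replicates. Called means a Benjamini-Hochberg adjusted p under 0.05 over all 19135 genes in edgeR's quasi-likelihood test with an absolute log2 fold change above 1.

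The called targets moved in opposite directions, and most members were not called. Against DMSO, Axin2 was called higher and Glul was called lower under both cocktails, and none of the other 8 members was called in either comparison. In 5C against DMSO, 1 member was called higher and 1 lower, where 7.30% of all tested genes were called higher and 4.42% lower, 11.7% in all. In 3C against DMSO, 1 was called higher and 1 lower, beside 5.83% and 3.62% of all genes, 9.45% in all. In 5C against 3C none of the 10 was called, beside 3.01% of all genes called in either direction, 2.16% higher and 0.852% lower. DESeq2 also called 0 members there. In edgeR 3 members had an unadjusted p under 0.05, but the share of all genes at that limit was not computed, so this count cannot be read against it. At an adjusted p under 0.05 with no limit on the fold change, 1 member was higher and 1 lower in 5C against DMSO, beside 15.6% and 13.1% of all genes (28.7% in all). On the same terms 2 were higher and 1 lower in 3C against DMSO, beside 12.7% and 11.8% (24.5% in all). Between 5C and 3C it was 0 and 0, beside 7.33% and 5.33% (12.7% in all). Both cocktails were set against the same DMSO libraries, so the first pair of comparisons is not independent.

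The fitted log2 fold change was positive for 7 of 10 members in 5C against DMSO, with a median of 0.13, and for 8 of 10 in 3C against DMSO, with a median of 0.81. Sp5 counts as positive in both, although 1 library of each cocktail was at or under the floor. With Sp5 set to the ratio of its cocktail mean to the floor, 0.962 in 5C and 1.41 in 3C, these medians were 0.06 and 0.65. That ratio is no bound on its change. The medians over all tested genes were 0 and 0.01. In 5C against 3C, 3 of 10 were positive, with a median of -0.23 beside -0.01 over all genes.

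Counting members whose replicates did not overlap between groups gave 4 higher and 1 lower in 5C against DMSO, where 63.1% of all tested genes did not overlap. For 3C against DMSO it gave 7 higher and 2 lower, beside 61.3% of all genes. For 5C against 3C it gave 1 higher and 5 lower, beside 58.0%.

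**Figure D1:**
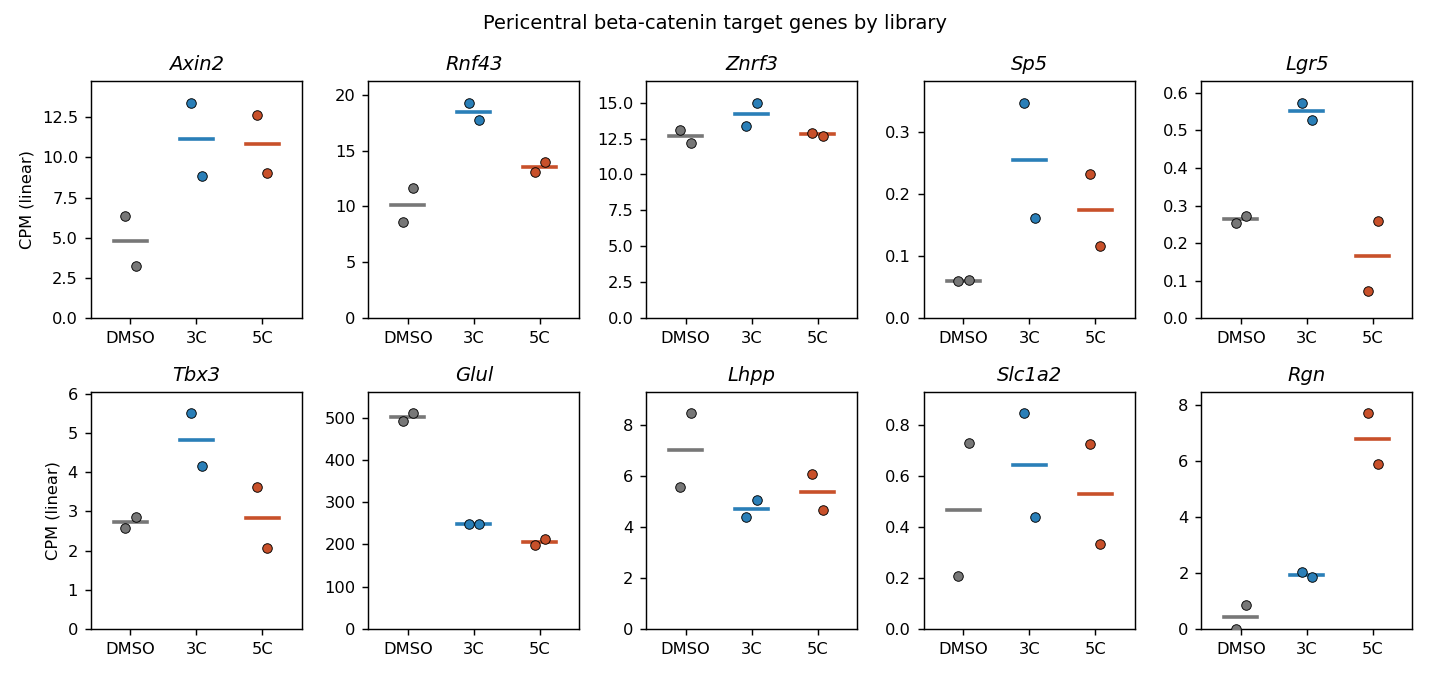
CPM (linear axis from 0, a separate scale in each panel) of the 10 target genes. Each point is 1 library, bars are means of the 2 libraries of a group, and no error bar is drawn. Both Axin2 and Rgn points of each cocktail lie above the DMSO points, and both Glul points of each cocktail lie below them.

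Axin2 (chromosome 11, 108811169 to 108841609) encodes a scaffold of the destruction complex and is a feedback inhibitor that beta-catenin itself induces. It stood at 6.33 and 3.26 CPM in DMSO, 13.4 and 8.82 CPM in 3C and 12.6 and 9.04 CPM in 5C. Every cocktail library was above both DMSO libraries, and the DMSO replicates differed from each other by nearly as large a ratio as the groups did. The group means were 4.79 ± 2.17 CPM (SD, n = 2) in DMSO, 11.1 ± 3.22 in 3C and 10.8 ± 2.5 in 5C. Axin2 was 2.29-fold higher in 5C than in DMSO, a log2 fold change of 1.19 (SE 0.34, adjusted p = 0.0377), and 2.27-fold higher in 3C, a log2 fold change of 1.18 (SE 0.34, adjusted p = 0.0439). Between 5C and 3C the log2 fold change was 0.01 (SE 0.34, adjusted p = 0.992). A fit without 1 library leaves its group with 1, which is then assumed to vary like the other groups. Without DMSO replicate 2 the log2 fold changes were 0.80 in both comparisons with DMSO, with adjusted p-values of 0.0857 and 0.0957, and neither was called. Leaving out 5C replicate 1 also ended both calls, with adjusted p-values of 0.182 in 5C and 0.0618 in 3C, and so did leaving out 5C replicate 2, with 0.0668 and 0.0659. Leaving out 3C replicate 1 ended the call in 3C, with an adjusted p of 0.214.

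Rnf43 (chromosome 11, 87553548 to 87626377) and Znrf3 (chromosome 11, 5226324 to 5394939) encode membrane ubiquitin ligases that remove Frizzled receptors and so dampen the pathway. Rnf43 stood at 8.64 and 11.7 CPM in DMSO, 19.3 and 17.7 CPM in 3C and 13.1 and 14 CPM in 5C. The 3C libraries were the highest, the 5C libraries lay between, and no groups overlapped. Rnf43 rose in 3C by 0.83 on the log2 scale (SE 0.16, adjusted p = 0.00543), which passed the test on p and stayed under the limit on the fold change. In 5C against DMSO the log2 fold change was 0.44 (SE 0.16, adjusted p = 0.0802), and in 5C against 3C it was -0.40 (SE 0.16, adjusted p = 0.17). Without DMSO replicate 2, the value in 3C against DMSO was 1.08 with an adjusted p of 0.00155, past both limits, in a fit where the spread came from the other groups and the remaining DMSO library had no replicate.

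Znrf3 stood at 13.1 and 12.2 CPM in DMSO, 13.4 and 15 CPM in 3C and 12.9 and 12.7 CPM in 5C. The 5C libraries fell inside the range of the DMSO libraries. The log2 fold changes were 0.03 (SE 0.13, adjusted p = 0.885) in 5C and 0.14 (SE 0.13, adjusted p = 0.519) in 3C against DMSO. This gene had the smallest absolute log2 fold change against DMSO of the 10 under both cocktails.

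Sp5 (chromosome 2, 70305267 to 70308073) encodes a zinc finger factor that is a direct target of beta-catenin and represses other targets. It stood at 0.0596 and 0.0607 CPM in DMSO, 0.347 and 0.161 CPM in 3C and 0.232 and 0.116 CPM in 5C, from 4 to 23 counts. Both DMSO libraries and 1 library of each cocktail were at or under the floor. Because a library of each cocktail was also under the floor, no fold is given. The adjusted p-values against DMSO were 0.25 in 3C and 0.374 in 5C.

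Lgr5 (chromosome 10, 115286216 to 115423685) encodes a receptor for R-spondins, which protect Frizzled from Rnf43 and Znrf3. It stood at 0.253 and 0.273 CPM in DMSO, 0.574 and 0.528 CPM in 3C and 0.0724 and 0.26 CPM in 5C, from 5 to 38 counts. Both 3C libraries were above all others, and 1 library of 5C was under the floor. The log2 fold change was 1.03 (SE 0.84, adjusted p = 0.452) in 3C against DMSO, -0.63 (SE 0.87, adjusted p = 0.656) in 5C against DMSO and -1.66 (SE 0.86, adjusted p = 0.289) in 5C against 3C. Without 5C replicate 1 the value in 5C against DMSO was 0.02.

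Tbx3 (chromosome 5, 119806298 to 119822797) encodes a T-box repressor that is found in pericentral hepatocytes. It stood at 2.58 and 2.85 CPM in DMSO, 5.5 and 4.15 CPM in 3C and 3.61 and 2.07 CPM in 5C. As with Lgr5 and Rnf43, both 3C libraries were above the other 4, and here the 5C libraries lay on either side of DMSO. The log2 fold change was 0.80 (SE 0.31, adjusted p = 0.0981) in 3C against DMSO, 0.08 (SE 0.31, adjusted p = 0.891) in 5C against DMSO and -0.72 (SE 0.31, adjusted p = 0.187) in 5C against 3C.

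Glul (chromosome 1, 153775690 to 153785469) encodes glutamine synthetase, which in the liver lobule is confined to the hepatocytes next to the central vein and which other cells, macrophages among them, also make. It stood at 491 and 510 CPM in DMSO, 248 and 248 CPM in 3C and 198 and 213 CPM in 5C. The DMSO libraries were the highest, the 5C libraries the lowest, and no groups overlapped. The means were 501 ± 13.4 CPM (SD, n = 2), 248 ± 0.0619 CPM and 205 ± 10.3 CPM. Glul was 2.41-fold lower in 5C, a log2 fold change of -1.27 (SE 0.07, adjusted p = 3.49e-06), and 2.07-fold lower in 3C, a log2 fold change of -1.05 (SE 0.07, adjusted p = 1.5e-05). Between 5C and 3C it was -0.22 (SE 0.07, adjusted p = 0.088). Both calls against DMSO were kept in all 14 alternatives, with values from -1.34 to -1.20 in 5C and from -1.09 to -1 in 3C. Its transcript shares 20.8% of its 50-base words with other genes, above all the pseudogene Glns-ps1. That pseudogene had 7 to 60 counts beside 13671 to 33630 for Glul, and the split of reads between them is uncertain.

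Most macrophage markers were lower under the cocktails, as Glul was. Markers of other cells did not share this, and in 5C against DMSO 0 stellate, mesothelial or cholangiocyte markers and 1 endothelial marker were called lower. The 12 macrophage markers summed to 13150 to 14140 CPM in DMSO, 4682 to 4691 CPM in 3C and 3101 to 3158 CPM in 5C, and none of the 12 was at 0 in any library. Of the 12, 10 were called lower in 5C and 10 in 3C. The exceptions were Cd14, higher by 0.60 on the log2 scale in 5C (adjusted p = 0.000734) and 0.86 in 3C (adjusted p = 0.000112), and Clec4f, a Kupffer cell marker, with log2 fold changes of -0.46 (adjusted p = 0.251) and -0.06 (adjusted p = 0.917). The 9 hepatocyte markers found summed to 2181 to 2333 CPM in DMSO, 11500 to 12180 CPM in 3C and 11330 to 16340 CPM in 5C, and all 9 were called higher in both. The 6 T and B cell markers reached at most 0.3034 CPM in sum. The part of macrophages in the decrease of Glul was not tested. In these bulk samples, fewer cells of a type and less RNA per cell cannot be told apart.

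Set against marker counts from the same library, the direction for Glul depended on the marker. Per 1000 counts of macrophage markers, Glul had 36.1 to 37.4 counts in DMSO, 52.8 to 52.9 in 3C and 62.7 to 68.5 in 5C, a higher ratio under the cocktails. Per 1000 counts of hepatocyte markers it had 211 to 234 in DMSO, 20.3 to 21.5 in 3C and 13 to 17.5 in 5C, a lower ratio. Among single macrophage markers, Cd14 had log2 fold changes of 0.60 in 5C and 0.86 in 3C and Clec4f -0.46 and -0.06, beside -1.27 and -1.05 for Glul. The higher ratio to the summed macrophage markers thus does not hold for each of them. Axin2 per 1000 macrophage marker counts was 0.231 to 0.481 in DMSO, 1.88 to 2.86 in 3C and 2.92 to 3.98 in 5C. Axin2 per 1000 hepatocyte marker counts was 1.5 to 2.71 in DMSO, 0.724 to 1.16 in 3C and 0.553 to 1.11 in 5C. Among single hepatocyte markers, Hnf4a had log2 fold changes of 1.04 in 5C and 1.39 in 3C, close to those of Axin2, so the ratio to the summed markers does not hold for each of them. Rgn per 1000 hepatocyte marker counts was 0 to 0.396 in DMSO, 0.152 to 0.176 in 3C and 0.361 to 0.681 in 5C, and the DMSO range overlapped that of both cocktails.

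**Figure D2:**
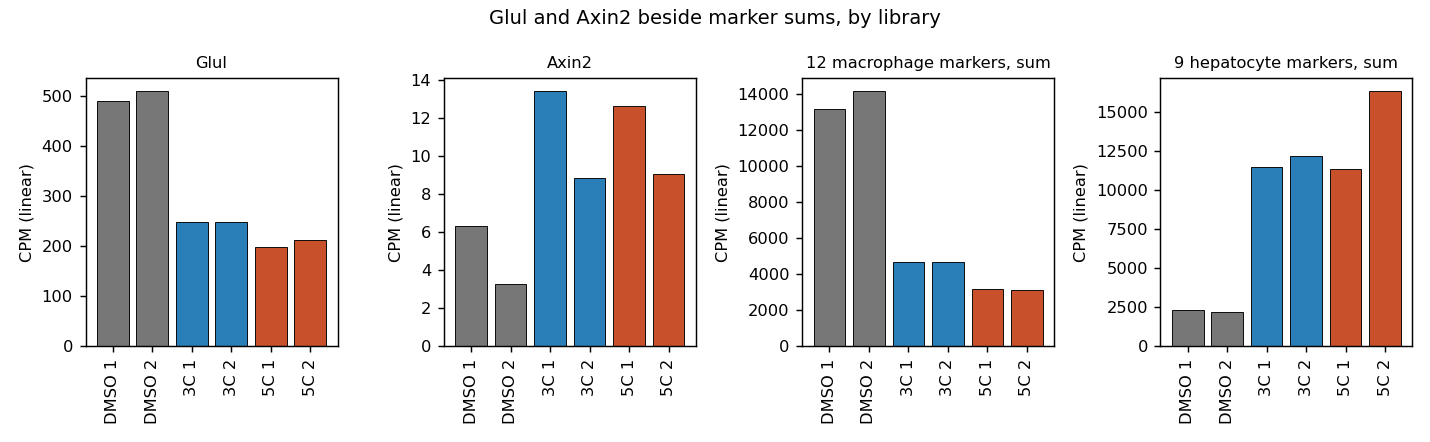
CPM (linear axis from 0) of Glul, Axin2, the sum of 12 macrophage markers and the sum of 9 hepatocyte markers. Each bar is 1 library, and no error is drawn. Glul and the macrophage sum are highest in the DMSO libraries and lowest in the 5C libraries, whereas Axin2 and the hepatocyte sum are lowest in DMSO.

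Lhpp (chromosome 7, 132212350 to 132308476) encodes a histidine and lysine phosphatase. It stood at 5.58 and 8.47 CPM in DMSO, 4.38 and 5.06 CPM in 3C and 6.1 and 4.68 CPM in 5C. The 3C libraries were below both DMSO libraries and the 5C libraries overlapped them. The log2 fold change was -0.61 (SE 0.25, adjusted p = 0.123) in 3C and -0.37 (SE 0.25, adjusted p = 0.332) in 5C against DMSO.

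Slc1a2 (chromosome 2, 102488574 to 102621129) encodes the glutamate transporter GLT-1, which supplies glutamine synthetase with its substrate in pericentral hepatocytes. It stood at 0.208 and 0.728 CPM in DMSO, 0.846 and 0.44 CPM in 3C and 0.724 and 0.332 CPM in 5C, from 14 to 56 counts. Each group held 1 high and 1 low library, so that all 3 groups overlapped. Its log2 fold changes were 0.42 (SE 0.75, adjusted p = 0.763) in 3C and 0.18 (SE 0.75, adjusted p = 0.895) in 5C against DMSO, and their sign turned when DMSO replicate 1 was left out, to -0.23 and -0.46.

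Rgn (chromosome X, 20413897 to 20428328) encodes regucalcin, a calcium-binding gluconolactonase of hepatocytes. It stood at 0 and 0.865 CPM in DMSO, 2.02 and 1.85 CPM in 3C and 7.72 and 5.89 CPM in 5C. The order DMSO, 3C, 5C held with no overlap between groups, and DMSO replicate 1 had no count at all beside 57 counts in DMSO replicate 2. The means were 0.432 ± 0.611 CPM, 1.94 ± 0.125 CPM and 6.8 ± 1.29 CPM (SD, n = 2). The fitted log2 fold change was 3.98 (SE 1.37, adjusted p = 0.109) in 5C and 2.12 (SE 1.32, adjusted p = 0.357) in 3C against DMSO, and 1.86 (SE 1.21, adjusted p = 0.464) in 5C against 3C. Without DMSO replicate 1, in a fit where DMSO had 1 library and the spread came from 3C and 5C alone, all of these passed both limits, with log2 fold changes of 2.98 (adjusted p = 0.000477), 1.11 (adjusted p = 0.0469) and 1.86 (adjusted p = 0.00217). Without DMSO replicate 2 they passed too, but the first pair was then fitted against a library at 0 and gives no fold.

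**Figure D3:**
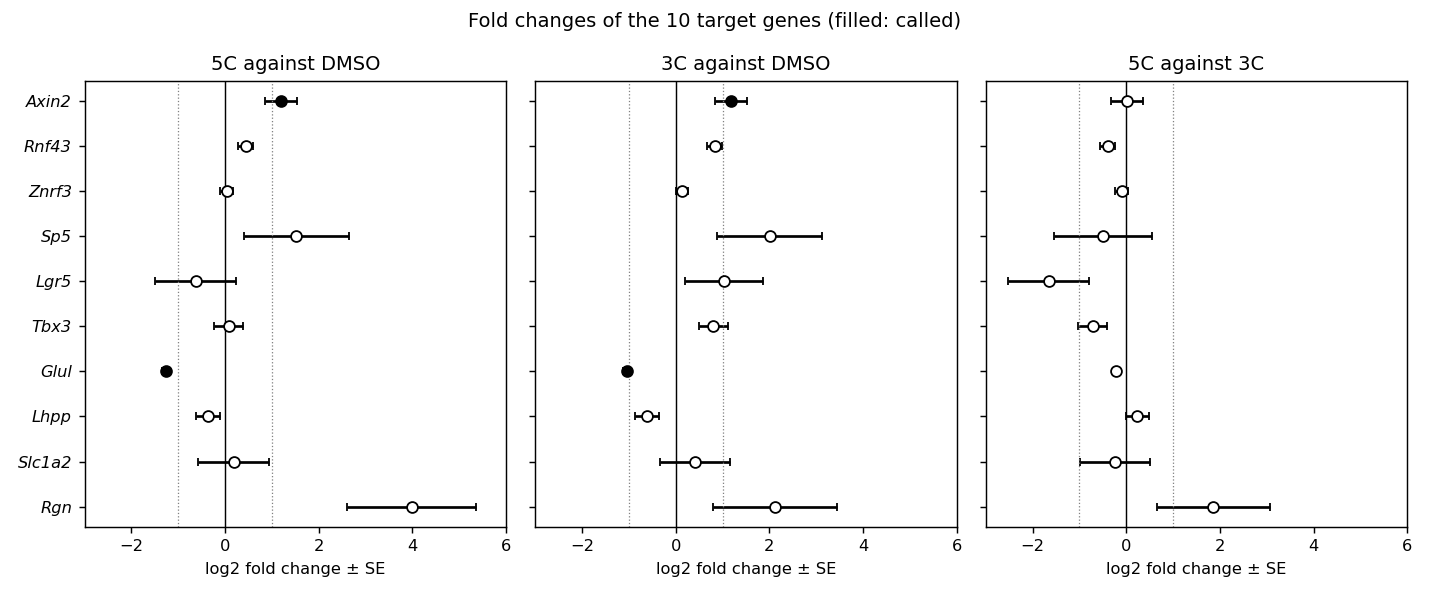
Log2 fold change (points) with its standard error (bars) for the 10 target genes in the 3 comparisons, from 2 libraries a group. Filled points are called, and dotted lines mark the limits of 1 and -1. Glul lies at -1.27 and -1.05 and Axin2 at 1.19 and 1.18 against DMSO, and the bars of Sp5, Lgr5 and Rgn are the longest.

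Levels were compared between genes as FPKM, which the authors scaled for gene length. Glul was the highest of the 10 in every group, at 164 ± 2.14 FPKM in DMSO, 80 ± 0.567 in 3C and 66.9 ± 1.69 in 5C (SD, n = 2). Next in DMSO were Lhpp at 3.94 ± 1.01, Rnf43 at 2.41 ± 0.397 and Znrf3 at 2.07 ± 0.254, where Rnf43 and Znrf3 differed by less than the sum of their SDs. Axin2 followed at 1.15 ± 0.634, Tbx3 at 0.55 ± 0.0916 and Rgn at 0.235 ± 0.332, and on that measure Tbx3 did not differ from Axin2 nor Rgn from Tbx3 beyond their spread. Lgr5, Slc1a2 and Sp5 were the lowest, at 0.05 ± 0.00178, 0.036 ± 0.0272 and 0.0233 ± 0.00424 FPKM, within the spread of their neighbours. In 3C the order after Glul was Rnf43 (4.3 ± 0.262), Axin2 (2.75 ± 0.781), Lhpp (2.62 ± 0.29) and Znrf3 (2.25 ± 0.264), and the last 3 of these lay within their spread. In 5C Rgn moved to rank 2 at 3.82 ± 0.802 FPKM, from rank 7 in DMSO and 6 in 3C, and it lay within the spread of Rnf43 at 3.22 ± 0.0914, Lhpp at 3.02 ± 0.612 and Axin2 at 2.85 ± 0.68.

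Of 13 other pericentral hepatocyte genes, 11 were tested, and those called against DMSO were all higher. In 5C, 6 were called higher and 0 lower (median 1.92, or 1.23 with Slc22a3, listed at 0 in DMSO and 3C, at its bound). In 3C, 6 were called higher and 0 lower (median 1.23). Slc1a4 fell under both cocktails, by 0.38 on the log2 scale in 5C (adjusted p = 0.00341) and 0.28 in 3C (adjusted p = 0.0189), under the limit on the fold change. Cyp2e1, the ethanol-inducible cytochrome P450, rose from 0.357 and 0.485 CPM in DMSO to 3.35 and 2.08 CPM in 3C and 6.79 and 12.8 CPM in 5C. Its log2 fold change was 4.56 (SE 0.43, adjusted p = 5.72e-05) in 5C and 2.65 (adjusted p = 0.00145) in 3C. It was the only gene of this list called between the cocktails, at 1.91 (SE 0.36, adjusted p = 0.00963) higher in 5C.

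Avpr1a, the hepatic vasopressin receptor, rose from 2.26 and 1.67 CPM to 20.9 and 20.2 CPM in 3C and 29.3 and 27.4 CPM in 5C, or by 3.35 and 3.87 on the log2 scale. Nr1i3, which encodes the xenobiotic sensor CAR, rose by 1.52 in 3C and 2.26 in 5C on the log2 scale, although its exons overlap Tomm40l on the opposite strand. Lect2, a hepatocyte chemokine-like protein, rose by 1.42 and 2.12. Cyp1a2 stood at 0.968 and 1.02 CPM in DMSO, 4.68 and 3.66 CPM in 3C and 2.85 and 1.76 CPM in 5C. Unlike Cyp2e1 it was highest in 3C, with log2 fold changes of 2.04 (adjusted p = 0.00173) in 3C and 1.23 (adjusted p = 0.0196) in 5C, and the difference between cocktails was -0.81 (adjusted p = 0.143). Oat, ornithine aminotransferase, stood at 203 and 194 CPM in DMSO, 167 and 165 CPM in 3C and 276 and 281 CPM in 5C. It was 0.51 higher in 5C (adjusted p = 0.000358) and 0.29 lower in 3C (log2 fold change -0.29, adjusted p = 0.0105), both under the limit on the fold change.

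Of 10 other general WNT targets, 9 were tested, and 4 were called higher in 5C (median 1.73, or 1.49 with Lef1 at its bound) and 2 in 3C (median 0.91, or 0.79), with 0 called lower in either. Cd44 and Ccnd1 fell in 5C by 0.89 (adjusted p = 0.000158) and 0.79 (adjusted p = 0.00374) on the log2 scale, both under the limit on the fold change. In 3C their log2 fold changes were -0.22 (adjusted p = 0.153) and 0.17 (adjusted p = 0.444). Nkd1, a feedback inhibitor of the pathway, stood at 9.13 and 5.9 CPM in DMSO, 23.8 and 19.9 CPM in 3C and 24.7 and 30.5 CPM in 5C. Its log2 fold change was 1.90 (SE 0.21, adjusted p = 0.00025) in 5C and 1.51 (adjusted p = 0.00107) in 3C. Tnfrsf19, a receptor of the TNF family, rose by 2.13 in 5C (adjusted p = 1.2e-05) and 2.14 in 3C (adjusted p = 1.72e-05). Apcdd1, a membrane inhibitor of WNT signalling, rose by 1.73 in 5C (adjusted p = 0.00081), with 0.79 in 3C (adjusted p = 0.0488). Bmp4, a BMP ligand, rose by 1.49 in 5C (adjusted p = 3.56e-05) and 0.91 in 3C. Exons of Tnfrsf19, Bmp4, Cd44 and Ccnd1 overlap genes on the opposite strand. Notum, a secreted deacylase of WNT proteins, stood at 0.357 and 0 CPM in DMSO, 0.453 and 0.572 CPM in 3C and 0.97 and 0.809 CPM in 5C, and was not called (adjusted p = 0.183 in 5C).

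Of the periportal genes, most were called higher under each cocktail, whereas Arg1 and Ctsc were lower. Among the 12 tested, 7 were called higher in 5C and 0 lower (median 2.1), and 8 higher and 0 lower in 3C (median 2.05, or 1.53 with Hsd17b6 at its bound). Pck1, the rate-limiting enzyme of gluconeogenesis, rose from 3.35 and 1.43 CPM in DMSO to 24.4 and 27.9 CPM in 3C and 92.9 and 143 CPM in 5C. The log2 fold change was 5.65 (SE 0.49, adjusted p = 0.00184) in 5C and 3.42 (adjusted p = 0.0089) in 3C, and 5C exceeded 3C by 2.23 (adjusted p = 0.0372). Hsd17b6, a hydroxysteroid dehydrogenase, had no count in DMSO, 0.528 and 0.308 CPM in 3C and 5.11 and 6.11 CPM in 5C. Against the floor this was at least 31.1-fold higher in 5C and at least 2.32-fold higher in 3C. The Hsd17b6 transcript shares 13.3% of its 50-base words with other genes, above all Rdh16f1, and the split of reads between them is uncertain. Sds, serine dehydratase, rose by 4.40 on the log2 scale in 5C and 3.57 in 3C, and Cps1, the first enzyme of the urea cycle, by 3.57 and 3.13. Cyp2f2, a periportal cytochrome P450, rose by 2.99 in 5C (adjusted p = 0.000842) and 2.56 in 3C (adjusted p = 0.00237). Arginase Arg1 fell by 0.85 on the log2 scale in 5C (adjusted p = 0.000269) and by 0.33 in 3C (adjusted p = 0.0422), and the protease gene Ctsc by 0.73 (adjusted p = 0.000295) and 0.57 (adjusted p = 0.00145), all under the limit on the fold change. Hal, histidine ammonia-lyase, had log2 fold changes of -0.06 (adjusted p = 0.874) in 5C and -0.34 (adjusted p = 0.324) in 3C. Of these 12, 2 were called higher (Pck1 and Hsd17b6) and 1 lower (Cdh1, E-cadherin, at -1.15 with an adjusted p of 0.00027) in 5C against 3C.

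**Figure D4:**
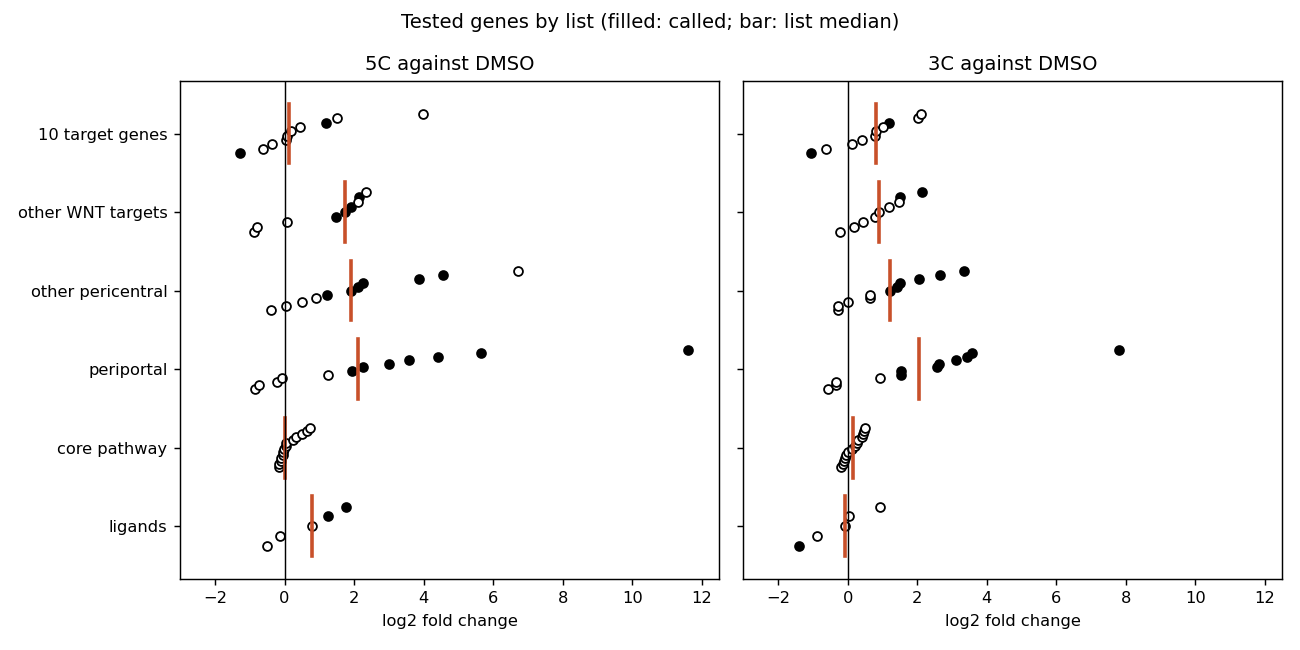
Log2 fold change of each tested gene of 6 lists in 5C against DMSO and in 3C against DMSO, 2 libraries a group. Filled points are called, vertical bars are list medians, and no error is drawn. The point farthest right is Hsd17b6, which had no count in DMSO, so its fitted value is no bound on the change. The medians of the 10 target genes, 0.13 and 0.81, lie left of those of the other pericentral genes, 1.92 and 1.23.

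Of 14 core components of the pathway, 0 were called in any comparison. Their median log2 fold change was 0.01 for 5C and 0.17 for 3C, each against DMSO. At an adjusted p under 0.05 alone, 4 were higher in 5C and 5 in 3C, none was lower in either, and 2 were lower in 5C than in 3C. Ctnnb1, which encodes beta-catenin, stood at 719 and 739 CPM in DMSO, 892 and 890 CPM in 3C and 714 and 708 CPM in 5C. Its log2 fold change was 0.26 (SE 0.07, adjusted p = 0.019) in 3C, -0.02 (SE 0.07, adjusted p = 0.885) in 5C and -0.27 (SE 0.07, adjusted p = 0.0252) between them.

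Of 6 ligands, 5 were tested. In 5C, 2 were called higher, Rspo1 and Wnt5a. In 3C, 1 was called lower, Wnt2. Rspo1, an R-spondin, went from 41.8 and 32.2 CPM in DMSO to 76.7 and 66.6 CPM in 3C and 132 and 117 CPM in 5C, and its log2 fold change was 1.77 in 5C (SE 0.12, adjusted p = 1.41e-05). Wnt5a, a ligand best known for signalling that does not use beta-catenin, stood at 32 and 26.1 CPM in DMSO, 28.9 and 27.6 CPM in 3C and 70.7 and 64.5 CPM in 5C, and exceeded 3C in 5C by 1.31 (adjusted p = 0.000258). Wnt2, made by sinusoidal endothelium, stood at 3.47 and 4.52 CPM in DMSO, 1.09 and 1.99 CPM in 3C and 2.95 and 2.6 CPM in 5C, with a log2 fold change of -1.41 in 3C (SE 0.34, adjusted p = 0.0152). Rspo3, the R-spondin of the central vein, stood at 9.95 and 9.75 CPM in DMSO, 5.48 and 5.35 CPM in 3C and 8.83 and 9 CPM in 5C, with -0.89 in 3C (adjusted p = 0.00264) and -0.13 in 5C (adjusted p = 0.61). Markers of endothelial cells summed to 329.6 to 339.9 CPM in DMSO, 96.07 to 131.8 CPM in 3C and 166.7 to 254.5 CPM in 5C, although in 5C 7 of the 9 tested genes were called up and 1 down, and in 3C 5 up and 1 down. The gene called down in both was Lyve1, which made up most of the DMSO sum. Its means were 314 CPM in DMSO, 72.1 CPM in 3C and 57.6 CPM in 5C, so the lower sums do not describe the list as a whole. Up to 2 of the 10 endothelial markers were at 0 in a library. The 6 mesothelial markers summed to 1436 to 1506 CPM in DMSO, 2094 to 2170 CPM in 3C and 2475 to 2667 CPM in 5C, with 4 called higher in 5C and 1 in 3C, and none at 0. Among them Gpm6a had log2 fold changes of 1.20 in 5C and -0.07 in 3C, Wt1 1.07 and 0.01, and Upk3b 1.18 and 0.07, beside 1.24 and -0.07 for Wnt5a. The rest of this list did not share that pattern, with 3.01 and 1.60 for Lrrn4, 0.63 and 0.38 for Msln, and 0.16 and 0.82 for Krt8. Krt8 was the largest part of the mesothelial sum in 3C, with means of 537 CPM in DMSO, 969 CPM in 3C and 594 CPM in 5C. The higher sum in 3C thus does not describe this list as a whole. The 10 stellate and fibroblast markers summed to 6544 to 7685 CPM in DMSO, 6154 to 6185 CPM in 3C and 10330 to 10940 CPM in 5C, with 4 called higher in 5C, 1 higher and 2 lower in 3C, and none at 0. The part of endothelial, mesothelial and stellate cells in the ligand values was not tested.

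Of 10243 other genes whose mean reached 10 CPM, the genes nearest to Glul over the 6 libraries were Prkch, Unc93b1 and Nampt, with root mean square differences of centred log2 CPM of 0.0443, 0.0463 and 0.0483. Unc93b1, for example, stood at 236 and 240 CPM in DMSO, 117 and 117 CPM in 3C and 91.6 and 92.5 CPM in 5C. For Axin2 the nearest were Epn3, Grik5 and C1rb, at 0.192, 0.214 and 0.226, a looser likeness. Epn3 stood at 7.56 and 4.32 CPM in DMSO, 14.4 and 14.5 CPM in 3C and 18.1 and 11.6 CPM in 5C. These are descriptions over 6 libraries, with no test.

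Exons of several members overlap genes on the opposite strand, and the use of strand in counting is not given in the sources used here. For Tbx3 the overlap was 1506 bases with Tbx3os1 and Tbx3os2, both at 0 counts, and for Axin2 209 bases with Gm11670, at 0 to 7 counts. For Glul it was 147 bases in all, with Teddm2, at 5 to 29 counts, and with Mir8114 on the same strand, at 1 to 2. Lgr5 and Rnf43 overlap Gm66839 and Gm73763 by 749 and 530 bases, and Sp5 overlaps Gm75094 by 206 bases. The count table holds no gene under those symbols. Slc1a2 overlaps Gm13872, at 0 counts, by 319 bases. Apart from Glul, shared 50-base words came to 4.45% for Lhpp, 2.15% for Sp5 and 1.35% for Lgr5, and to under 1% for the other 6.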

How the data were processed

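Bulk RNA-seq of 6 libraries was analysed, 2 per group, grouped by treatment label. The authors deposited a table of estimated counts (whole numbers, not normalized, 52323 genes) and a table of FPKM (52327 genes, scaled by them for gene length and library total). The submitters' processing notes name featureCounts, Subread and DESeq2 with GRCm39. The aligner, annotation and strand setting are not given in the sources used here. Among low counts, 4 was frequent (4816 entries, beside 3121 of 3 and 2303 of 5), so the number of count units per fragment is unknown. It was assumed to be 4 for the floor, which rests on that assumption. Columns of fold changes or p-values were not used.

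The main test was edgeR 4.0.16 in R 4.3.3 (quasi-likelihood, robust, TMM, filterByExpr, 1 coefficient per group), with 3 residual degrees of freedom and a biological coefficient of variation of 18.4%. The SE is the value implied by the F statistic. Alternatives were RLE normalization, no filter, DESeq2 1.42.0, 4 libraries only, a replicate block, no fold limit, limma 3.58.1 on the FPKM (log2 with a pseudocount of 1 or of 0.1), and fits without each library in turn. Dividing counts by 4 was chosen after seeing the data. The steps were tested on simulated data. Positions, promoters and shared words used the GENCODE annotation of GRCm39, which held promoters for all 10 members, and figures used matplotlib 3.10.9.

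The members and lists were chosen with earlier results of these data known. Named genes were all members, Oat, Cyp2e1, Cyp1a2, Nkd1, Notum, Cyp2f2, Pck1, Wnt2, Rspo3 and Ctnnb1, up to 4 called genes per list and comparison with the largest change, and the 3 genes most like Glul and like Axin2. Genes named in the closing section for opposite signs and those named for overlap, a bound, shared sequence or a direction unlike the rest of their list came from those results. Of 10 hepatocyte markers 9 matched a symbol. The 6 cholangiocyte markers relative to DMSO gave 3 called higher in 5C, 4 in 3C and 0 lower. None of 6 lymphocyte genes was tested.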

Additional observations from a re-analysis of the deposited data

Results flagged for a closer look

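Of the 65 genes of these lists, 6 had fitted values of opposite sign under the 2 cocktails relative to DMSO, and the cocktails differed from each other at an adjusted p under 0.05 in edgeR, and 0 of the 10 target genes did so. Oat passed the test in both directions, with log2 fold changes of 0.51 in 5C (adjusted p = 0.000358) and -0.29 in 3C (adjusted p = 0.0105), a difference of 0.80 (SE 0.06, adjusted p = 0.000258). In the other 5 the value under 1 cocktail passed against DMSO and the value of opposite sign under the other did not, with adjusted p-values from 0.117 (Cdh1 in 5C) to 0.885 (Ctnnb1 in 5C). Wnt5a differed by 1.31 (1.24 in 5C and -0.07 in 3C, adjusted p = 0.000258). Cdh1 differed by -1.15 (-0.23 and 0.92, adjusted p = 0.00027) and Ccnd1, which encodes cyclin D1, by -0.96 (-0.79 and 0.17, adjusted p = 0.00411). Lgr4, an R-spondin receptor, differed by -0.51 (-0.10 and 0.41, adjusted p = 0.00759), and Ctnnb1 by -0.27 (-0.02 and 0.26, adjusted p = 0.0252).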

How the results depend on the processing

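The calls of Glul held under every alternative run, and those of Axin2 did not. Of 413 alternative values for the 30 fold changes of the members, 371 kept their direction and side of the threshold, 14 lost a call, 12 gained one and 16 changed sign, none of the 16 among called values. Members called in 5C against DMSO numbered 2, with 1 without the filter on low counts, 3 with counts divided by 4 and 1 to 3 when leaving out a library. In 3C against DMSO they numbered 2, with 1 without the filter, 1 with 4 libraries, 1 on log2(FPKM + 1), 1 on log2(FPKM + 0.1) and 1 to 3 when leaving out a library. In 5C against 3C they numbered 0, with 1 with 4 libraries, 1 on log2(FPKM + 1) and 0 to 1 when leaving out a library. Axin2 was not called without the filter (adjusted p = 0.0545 in 5C and 0.0642 in 3C), on log2(FPKM + 1) (0.0921 and 0.117) or on log2(FPKM + 0.1) (0.0844 and 0.107), nor with 4 libraries in 3C (0.0519). Over its alternatives the adjusted p ran from 0.00168 to 0.182 in 5C and from 0.00201 to 0.214 in 3C. Rgn was called in 5C against DMSO on log2(FPKM + 1) (1.98, adjusted p = 0.00337), on log2(FPKM + 0.1) (4.02, 0.0177) and with counts divided by 4 (adjusted p = 0.00927). In 5C against 3C it was called with 4 libraries (adjusted p = 0.00211) and on log2(FPKM + 1) (1.21, 0.0492). The cause of these changes was not tested.

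Called genes of the other pericentral, WNT target and periportal lists numbered 17 in 5C against DMSO (16 to 19 when leaving out a library), 16 in 3C against DMSO (13 to 18, and 10 on log2(FPKM + 1)) and 4 in 5C against 3C (2 to 4, and 14 with no fold limit). Signs turned for Tbx3 in 5C against DMSO (-0.01 on log2(FPKM + 1), -0.04 on log2(FPKM + 0.1)) and for Slc1a2 in 5C against 3C (0 on log2(FPKM + 0.1)). Leaving out a library turned the sign of some uncalled values. For 5C against DMSO the ranges were -0.36 to 0.41 for Tbx3 (lowest without 5C replicate 1, and -0.01 without DMSO replicate 1), -0.47 to 1.36 for Slc1a2, -0.01 to 0.08 for Znrf3 and -1.83 to 0.02 for Lgr5. For 3C against DMSO the range was -0.23 to 1.60 for Slc1a2. For 5C against 3C the ranges were -0.89 to 0.31 for Slc1a2, -1.06 to 0.15 for Sp5 and -0.26 to 0.34 for Axin2.

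Same-numbered libraries did not deviate together over all genes (r = -0.03, 0 and 0.02 over 19135 genes). These correlations cannot show whether same-numbered samples shared an animal, a culture or a batch. Axin2 was higher in replicate 1 than in replicate 2 of every group. With the replicate block in edgeR, its log2 fold changes were 1.24 in 5C (adjusted p = 0.00177) and 1.22 in 3C (adjusted p = 0.00237), each against DMSO. The replicate block gave 2 called members for 5C and 2 for 3C, each against DMSO, and 0 for 5C against 3C. For the other lists it gave 17, 15 and 3, in that order. Sp5, Lgr5 and Slc1a2 had no more than 56 counts in any library and the widest standard errors beside Rgn. In fits without a library its group has 1, which is assumed to vary like the other groups.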
